A study of Mus musculus with 3 samples.

Results

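The genes of axon guidance and cell adhesion described here were followed through the vomeronasal sensory neurons (VSNs) of the mouse vomeronasal organ (VNO), 10 of the 32285 genes counted. They were chosen by name, with earlier results of these data known: the guidance receptors Nrp1, Nrp2, Robo1 and Robo2, the receptor tyrosine kinase Epha5 and its ligand Efna5, and the adhesion molecules Kirrel2, Kirrel3, Ncam1 and Ncam2. Their transcripts were counted as unique molecular identifiers (UMIs) in immature and mature VSNs of the V1R and V2R types, and in glia and endothelium, among 15711 cells with 200 to 9000 genes and at most 10% mitochondrial UMIs. All 10 genes had at least 1 UMI in every library.

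Single-cell RNA-seq was done on 3 libraries of whole VNO from male mice of a mixed C57 BL/6J and 129P2/OlaHsd background. The P10 control was heterozygous for OMPCre, in which Cre recombinase is made from the gene for olfactory marker protein (Omp), and was taken at postnatal day 10. The P10 mutant, of the same age, and the 3-month mutant were double heterozygous for OMPCre and R26AP2e, a Rosa26 transgene for the transcription factor AP-2ε (gene Tfap2e). All 3 libraries therefore carried OMPCre, the transgene depends on Cre made from the Omp gene, and no 3-month control was analysed here. The labels do not say how many animals were pooled for a library. Each group had 1 library, so differences between libraries have no replicate check, and genotype or age cannot be told apart from the library.

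VSNs lie in an epithelium with an apical layer, whose neurons use V1R receptors with the G protein subunit Gαi2 and express Meis2, and a basal layer, whose neurons use V2R receptors with Gαo and express AP-2ε. The axons of the apical neurons end in the anterior and those of the basal neurons in the posterior accessory olfactory bulb. Neuropilins bind secreted semaphorins and Robo receptors bind Slits, and both steer VSN axons to one or the other end of the bulb, while Kirrel and Ncam proteins act between axon membranes when axons bundle and sort into glomeruli.

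Levels are given as CPM, the counts of a gene over all UMIs of the pooled cells of one class in one library scaled in the customary way, with exact Poisson 95% intervals in parentheses that cover counting error only. Where 3 values stand in a row without a name they are in library order, which is P10 control, P10 mutant, 3-month mutant. In library order 4795, 3956 and 6960 cells were kept, which was 58.5%, 44.6% and 67.6% of the barcodes, and the median depth of kept cells was 10236, 10767 and 5011 UMIs. Between 4 and 9 kept barcodes were shared by any pair of libraries. There were 88, 38 and 26 immature V1R cells, 100, 33 and 24 mature V1R cells, 87, 39 and 3 immature V2R cells, 25, 14 and 59 mature V2R cells, 55, 71 and 172 glia, and 161, 216 and 376 endothelial cells. The mature V2R cells of the 3-month mutant were shallow, with a median of 4816 UMIs against 22589 and 25447 at P10. The classes carried their defining genes: Omp was between 392.2 and 516 CPM in the mature classes and at most 39.3 CPM in the immature ones, and Gap43, a growth cone protein, was at least 1301 CPM in the immature classes and at most 458 CPM in the mature ones. Glia had 297 to 309 CPM of Sox10, a transcription factor gene of the glial lineage, and at most 6.0 CPM of Pecam1. They also had 784 to 1449 CPM of the tight junction gene Cldn5, which was at 772 to 1128 CPM in endothelium. Pecam1 was at 533 to 581 CPM in the endothelium and at most 9.9 CPM in the neuronal classes.

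The transgene was visible in the counts. Tfap2e measured 0.66, 690 and 272 CPM in mature V1R cells, and in mature V2R cells, which express the gene on their own, it measured 143, 527 and 242 CPM. Immature V1R cells had 0, 317 and 139 CPM. Both mutant libraries were above the control in these classes, but immature V2R cells had 337, 431 and 315 CPM, with the 3-month mutant below the control. Glia and endothelium, with 0 UMIs in the control, had 11.9 to 22.2 CPM in the mutants. The counts do not tell apart transcripts of the transgene and of the endogenous gene.

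**Figure D1:**
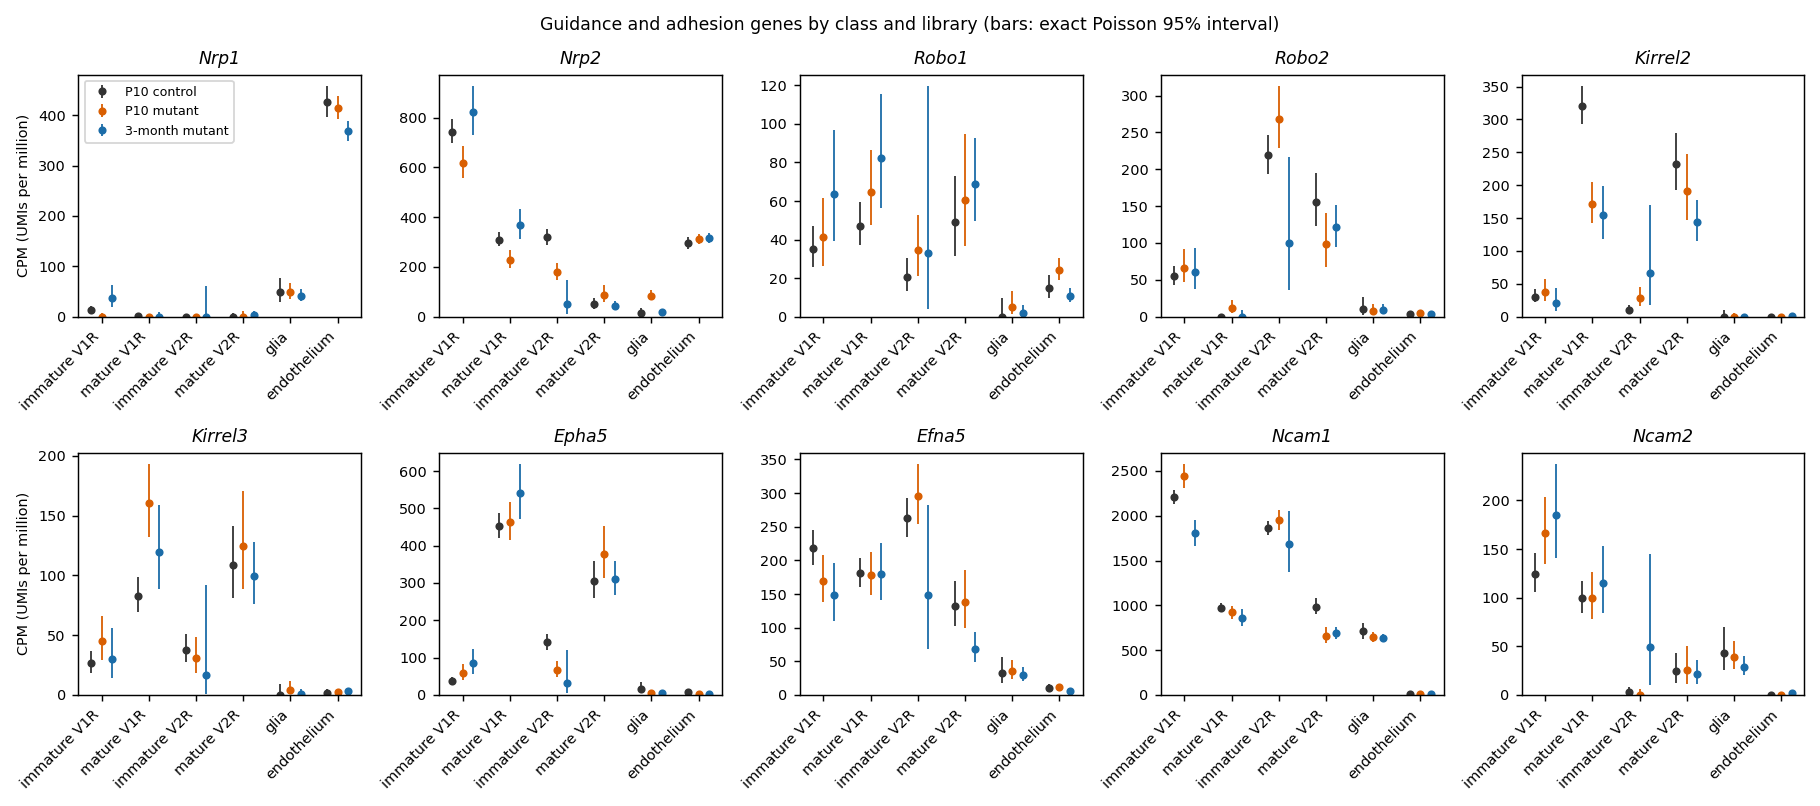
CPM (linear axes from 0, a scale of its own in each panel) of the 10 guidance and adhesion genes in 6 cell classes; each point is one library and bars are exact Poisson 95% intervals. Nrp1 is highest in endothelium, where the libraries lie between 368 and 426 CPM, Robo2 lies highest in immature V2R cells of both P10 libraries, and Ncam2 in V1R cells. The wide bars at immature V2R in the 3-month mutant come from 3 cells.

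The V1R and V2R types were separated by the same 3 genes at both stages: Nrp2 and Ncam2 were lower, and Robo2 was higher, in V2R cells. Counts were summed per library and class, and the class difference was tested over the libraries with edgeR's quasi-likelihood test with the library as a model term. Among mature VSNs 3 of the 9 members tested passed an adjusted p of 0.05, beside 3.14% of the 8606 genes tested, and among immature VSNs 3 of 9 passed, beside 4.15%. The median log2 difference over the 9 members was -0.26 in mature and -0.20 in immature cells, and over all genes tested it was -0.02 and 0.01. Nrp1 had too few UMIs in neurons to enter these tests. The libraries served as replicates of the class difference although they differ in genotype and age.

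Nrp2 encodes neuropilin-2, the receptor subunit for class 3 semaphorins such as Sema3f, and its gene lies on chromosome 1 (GRCm38, chr1:62703285-62818695, plus strand). In immature V1R cells the control had 743 CPM (697 to 792), the P10 mutant 619 CPM (555 to 688) and the 3-month mutant 823 CPM (728 to 927). Immature V2R cells had 318 CPM in the control and 180 CPM in the mutant at P10, and 3 UMIs in the 3 cells at 3 months. At P10 neither V2R interval reached into a V1R interval, and the fitted log2 difference was -1.43 ± 0.25 (SE, edgeR adjusted p = 0.00473). Mature V1R cells had 309, 228 and 369 CPM in library order. Mature V2R cells had 49.0, 86.3 and 42.5 CPM, from 24, 27 and 26 UMIs. Every mature V2R library was below every mature V1R library, with a log2 difference of -2.43 ± 0.27 (edgeR adjusted p = 0.000147).

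The highest of the mature V2R values of Nrp2 was that of the P10 mutant, and the apical markers Meis2 and Gnai2 were also highest there. In these 14 cells Meis2 was at 240 CPM and Gnai2 at 1361 CPM, against 83.8 and 353 CPM in the control cells and 37.6 and 263 CPM in those at 3 months. Ncam2, the other member lower in V2R cells, differed little, with 24.5, 25.6 and 21.3 CPM in library order. Of the 14 cells, 5 (35.7%) lay in apical mature sub-clusters, compared with 4 of 25 (16%) in the P10 control. The part of these cells in the Nrp2 level was not tested.

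Robo2, a receptor for the Slit proteins, is encoded on chromosome 16 (chr16:73891839-74411825, minus strand) and was the gene with the opposite pattern. At P10, immature V2R cells had 219 CPM (194 to 247) in the control and 269 CPM (229 to 313) in the mutant, and the 3 cells at 3 months held 6 UMIs. Immature V1R cells had 54.6, 66.2 and 60.5 CPM in library order, below the V2R intervals of both P10 libraries. The immature difference was 2.03 ± 0.38 on the log2 scale (edgeR adjusted p = 0.00768). DESeq2 gave it an adjusted p of 0.699, and without the library term edgeR gave 0.0570.

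Mature V2R cells had 155, 99.0 and 121 CPM of Robo2. Mature V1R cells held 0 UMIs in the P10 control (100 cells) and 0 at 3 months (24 cells), counts that allow up to 1.97 and 7.48 CPM. The P10 mutant had 8 UMIs there, or 11.3 CPM, in 3 cells, and 1 cell had 75% of them. With the empty libraries set to 3 UMIs, mature V2R cells were at least 78.8-fold higher in the control and at least 16.2-fold higher at 3 months, and the ratio in the P10 mutant was 8.79. The fit gave 5.28 ± 0.57 on the log2 scale (edgeR adjusted p = 0.000133), a size that depends on the prior count where libraries are empty.

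Ncam2, also called OCAM, is an immunoglobulin-type adhesion molecule of olfactory and vomeronasal axons, encoded on chromosome 16 (chr16:81200697-81626828, plus strand). Immature V1R cells had 125 CPM (106 to 146), 166 CPM (134 to 204) and 185 CPM (141 to 237) in library order. Immature V2R cells at P10 had 4 UMIs (3.30 CPM) in the control and 0 in the mutant, so that the mutant's V1R level was at least 33.9-fold higher. The 3 immature V2R cells of the 3-month mutant held 3 UMIs, all in 1 cell, and did not enter the fit. The log2 difference was -5.91 ± 0.41 (edgeR adjusted p = 1.02e-05), and again its size depends on the prior count.

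Mature V1R cells had 99.8, 99.9 and 115 CPM of Ncam2 and mature V2R cells 24.5, 25.6 and 21.3 CPM, from 12, 8 and 13 UMIs. The classes did not overlap, and the log2 difference was -2.17 ± 0.27 (edgeR adjusted p = 0.000347). Nrp2, Robo2 and Ncam2 kept direction and significance in mature cells under all 15 alternatives computed for each of them.

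The other 6 members tested did not pass between the types. Among mature cells Kirrel2 differed by -0.19 on the log2 scale (adjusted p = 0.833), Kirrel3 by -0.09 (0.942), Robo1 by -0.12 (0.875), Ncam1 by -0.26 (0.434), Epha5 by -0.57 (0.284) and Efna5 by -0.72 (0.0685), all with edgeR. Epha5 passed in 2 of its 15 alternatives and Efna5 in 1. Among immature cells Epha5 was 1.12 higher in V2R cells (edgeR adjusted p = 0.0787) and passed in 4 of 15 alternatives.

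**Figure D2:**
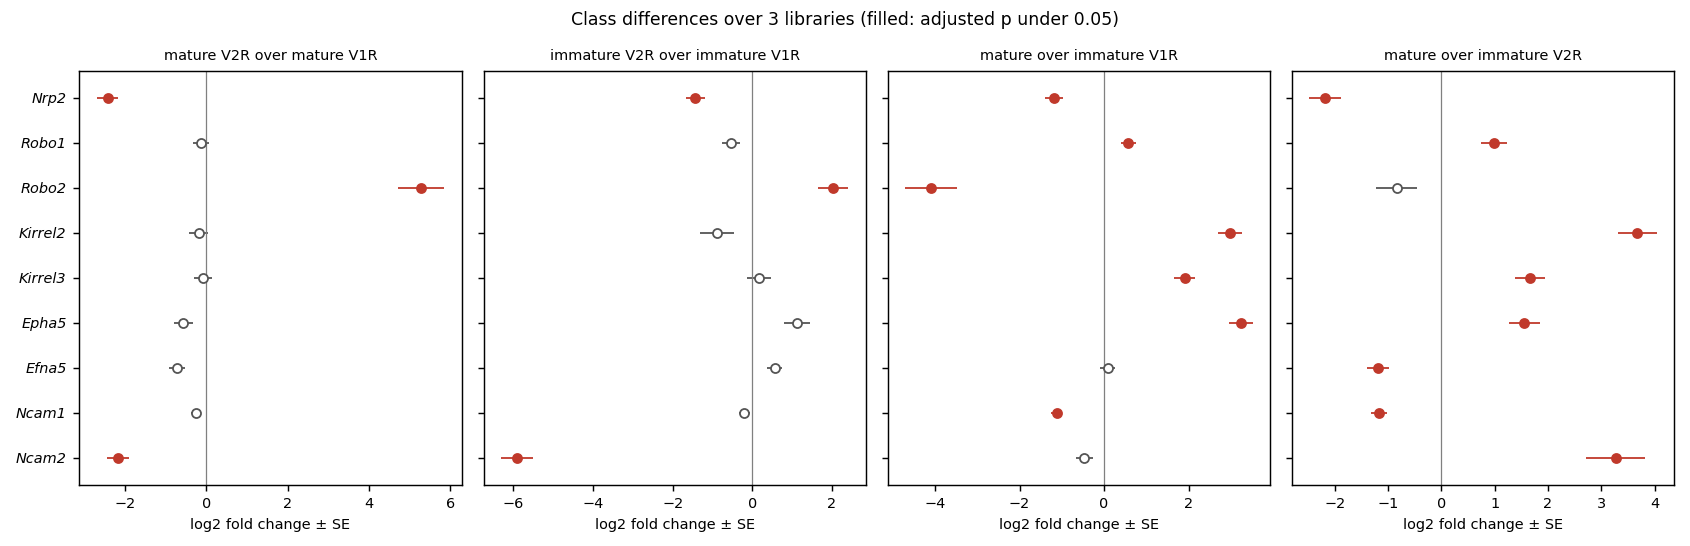
Fitted log2 fold change ± SE (x axis, a scale of its own in each panel) of the 9 members tested, for the 4 contrasts among neuronal classes; filled points passed an edgeR adjusted p of 0.05. Robo2 stands to the right and Nrp2 and Ncam2 to the left in both V2R over V1R panels, and Kirrel2, Kirrel3 and Epha5 stand to the right in both panels of mature over immature cells.

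The start regions of the 3 genes that separated the types are shown because their levels went with cell types that differ in AP-2ε and Meis2. They are 300 bases each, from 250 bases before to 50 after the RefSeq start, in build GRCm38.p6, written 5′ to 3′ on the gene's own strand. Capitals mark matches to the Ebf motif CCCNNGGG, and none of the 3 windows held the AP-2 motif GCCNNNGGC or the Meis motif TGACAG, on either strand. The windows are Nrp2 chr1:62703067-62703366 (plus strand), Robo2 chr16:74411776-74412075 (minus strand) and Ncam2 chr16:81200447-81200746 (plus strand).
Nrp2: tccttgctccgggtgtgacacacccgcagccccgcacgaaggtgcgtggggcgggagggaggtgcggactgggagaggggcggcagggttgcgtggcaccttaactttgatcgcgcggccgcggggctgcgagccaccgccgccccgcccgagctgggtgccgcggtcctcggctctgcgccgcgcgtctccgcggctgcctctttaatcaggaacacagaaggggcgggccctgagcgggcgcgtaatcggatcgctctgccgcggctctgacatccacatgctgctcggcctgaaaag
Robo2: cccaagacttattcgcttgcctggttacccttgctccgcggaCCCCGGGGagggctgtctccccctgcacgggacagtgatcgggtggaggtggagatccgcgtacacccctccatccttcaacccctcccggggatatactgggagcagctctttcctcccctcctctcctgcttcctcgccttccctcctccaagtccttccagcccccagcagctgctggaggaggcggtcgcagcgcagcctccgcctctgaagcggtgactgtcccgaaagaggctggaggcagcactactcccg
Ncam2: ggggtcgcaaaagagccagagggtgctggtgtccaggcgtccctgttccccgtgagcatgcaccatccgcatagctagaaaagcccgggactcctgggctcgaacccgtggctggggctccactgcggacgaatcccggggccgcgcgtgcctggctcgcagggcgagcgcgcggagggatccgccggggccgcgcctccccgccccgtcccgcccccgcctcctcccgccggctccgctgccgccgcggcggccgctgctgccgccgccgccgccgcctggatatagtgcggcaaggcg
RefSeq gave 10 such windows for 8 of the 10 members, with 3 for Robo2. The AP-2 motif was in 0 of the 10 windows and in 16.6% of 32851 promoters of the same length, the Meis motif was in 2 (both other Robo2 windows) and in 19.2%, and the Ebf motif was in 2 (the Robo2 window shown and that of Kirrel2) and in 13.7%. The counted UMIs come from transcript 3′ ends and do not show which start was used. A match is a run of letters and not a bound site.

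Maturation moved most of the genes, and 6 of them moved in the same direction in both types. In V1R cells 4 members rose and 3 fell of 9 tested, beside 20.9% and 17.6% of all genes, and in V2R cells 5 rose and 3 fell, beside 16.2% and 13.1%. The median log2 change of the members was 0.09 in V1R and 0.99 in V2R cells, against -0.02 and -0.01 over all genes tested. Kirrel2, Kirrel3, Epha5 and Robo1 rose in both types, and Nrp2 and Ncam1 fell in both. The share of all genes that passed in the same direction in both types was not computed, so these 6 have no background beside them.

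Kirrel2 and Kirrel3 encode nephrin-like adhesion molecules that bind their own kind across membranes and mark subsets of VSN axons. Kirrel2, on chromosome 7 (chr7:30447534-30457690, minus strand), measured 30.4, 37.6 and 21.2 CPM in immature V1R cells and 321, 172 and 155 CPM in mature V1R cells. In V2R cells it was at 10.7 and 27.8 CPM in the immature cells of the P10 libraries and at 233, 192 and 144 CPM in mature cells. Mature cells were higher than immature cells of the same type in every library of the fit, by 2.98 ± 0.29 on the log2 scale in V1R cells (edgeR adjusted p = 6.01e-06) and by 3.67 ± 0.37 in V2R cells (2.03e-05).

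Kirrel3, on chromosome 9 (chr9:34485894-35036716, plus strand), was at 26.5 to 44.7 CPM in immature V1R cells and at 82.7, 160 and 120 CPM in mature V1R cells. In V2R cells it was at 37.9 and 31.1 CPM in immature cells of the P10 libraries and at 108, 125 and 99.8 CPM in mature cells. The rise was 1.90 ± 0.24 on the log2 scale in V1R cells (edgeR adjusted p = 5.24e-05) and 1.66 ± 0.28 in V2R cells (0.000789).

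Kirrel2 and Kirrel3 were counted both together and alone in mature cells. Whether they shared cells more often than unrelated genes counted in as many cells was not tested. Of 57 mature V1R cells of the P10 control with at least 10000 UMIs, 33 had UMIs of both genes, 11 of Kirrel2 alone, 12 of Kirrel3 alone and 1 of neither. The counts were 15, 2, 9 and 0 of 26 cells for the P10 mutant and 9, 1, 5 and 0 of 15 at 3 months. Among mature V2R cells of that depth they were 9, 3, 8 and 1 of 21, 7, 2, 3 and 0 of 12, and 10, 4, 9 and 2 of 25. Single cells varied widely in Kirrel2: in mature V1R cells of the P10 control the quartiles were 38.9, 145 and 458 CPM and the highest cell had 1818 CPM. Glia, which should lack the gene, had 0 Kirrel2 UMIs in 298 cells at median depths of 4656 to 9742 UMIs. A split of Kirrel2 by V1R receptor was not possible, since 157 mature V1R cells carried 81 different leading receptors and the most frequent, Vmn1r89, had 7 cells.

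Epha5, an Eph receptor tyrosine kinase read by ephrin-A ligands, is encoded on chromosome 5 (chr5:84054761-84417382, minus strand). It rose from 36.7, 59.0 and 84.7 CPM in immature V1R cells to 453, 465 and 541 CPM in mature V1R cells. Of the 28 UMIs in the immature V1R cells of the 3-month mutant, 1 cell held 89.3%. In V2R cells the levels were 141 and 67.1 CPM at the immature stage at P10 and 306, 377 and 311 CPM at the mature stage. The log2 rise was 3.24 ± 0.28 in V1R cells (edgeR adjusted p = 2.14e-06) and 1.56 ± 0.29 in V2R cells (0.00173). Without the P10 mutant library the V2R rise was 0.94 with an edgeR adjusted p of 0.0646. The difference between the rises was -1.69 ± 0.40 (edgeR adjusted p = 0.166).

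Efna5, the ephrin-A5 ligand that is anchored in axon membranes, lies on chromosome 17 (chr17:62604184-62881317, minus strand). Its levels in V1R cells were 218, 170 and 148 CPM when immature and 181, 179 and 179 CPM when mature, with a log2 change of 0.09 ± 0.18 (edgeR adjusted p = 0.739). In V2R cells it fell from 263 and 296 CPM at P10 to 133, 137 and 68.7 CPM in mature cells, by 1.19 on the log2 scale (SE 0.21, edgeR adjusted p = 0.00106). That fall had an edgeR adjusted p of 0.0643 when cells were limited to 5% mitochondrial UMIs. The difference between the changes of the types was -1.27 ± 0.27 (edgeR adjusted p = 0.110, DESeq2 adjusted p = 0.0460).

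Ncam1, the neural cell adhesion molecule of most neurons, lies on chromosome 9 (chr9:49502136-49798925, minus strand). Immature cells had 2208, 2441 and 1806 CPM in the V1R type and 1858 and 1947 CPM at P10 in the V2R type. Mature V1R cells had 971, 922 and 860 CPM and mature V2R cells 985, 661 and 687 CPM. It fell by 1.12 on the log2 scale in V1R cells (SE 0.13, edgeR adjusted p = 2.49e-05) and by 1.18 in V2R cells (SE 0.15, 0.000107). Nrp2 fell by 1.18 in V1R cells (SE 0.21, edgeR adjusted p = 0.000715) and by 2.18 in V2R cells (SE 0.29, 0.000172), and the falls differed by -1.00 ± 0.37 (0.483).

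Robo1, the second Slit receptor of this pair, lies on chromosome 16 (chr16:72308306-73046095, plus strand). It was at 35.1, 41.1 and 63.5 CPM in immature and 47.3, 64.8 and 82.3 CPM in mature V1R cells, and at 20.6 and 34.4 CPM in immature V2R cells at P10 and 49.0, 60.7 and 68.7 CPM in mature V2R cells. The intervals of the V1R stages overlapped in every library. The log2 rise was 0.58 ± 0.19 in V1R cells (edgeR adjusted p = 0.0262), a call that 8 of 14 alternatives lost, among them each of the 3 that left out 1 library (0.115 without the P10 control, 0.181 without the P10 mutant and 0.0657 without the 3-month mutant). In V2R cells it was 0.99 ± 0.25 (edgeR adjusted p = 0.00903), with 0.25 without the P10 control and 0.0734 without the P10 mutant.

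Robo2 passed the test of maturation in V1R cells and Ncam2 in V2R cells. Robo2 fell in V1R cells, from the 54.6, 66.2 and 60.5 CPM given above to 0, 11.3 and 0 CPM: immature cells were at least 27.7-fold higher in the P10 control and at least 8.09-fold higher in the 3-month mutant (log2 fit -4.09 ± 0.62, edgeR adjusted p = 0.000212). In V2R cells its change was -0.84 ± 0.38 (edgeR adjusted p = 0.118), and it passed in 4 of 14 alternatives, with edgeR adjusted p from 4.31e-05 with only the 2 classes compared. The difference between the types was 3.25 ± 0.78 with an edgeR adjusted p of 0.166, and without the P10 mutant library, the one with Robo2 UMIs in mature V1R cells, it was 7.94 with 0.0186. Ncam2 rose in V2R cells, from 3.30 and 0 CPM at P10 to 24.5 and 25.6 CPM, with a fit of 3.27 ± 0.55 (edgeR adjusted p = 0.000807), and its change in V1R cells was -0.47 (0.0782).

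The test of the difference between the maturation changes of the types was added after both changes had been seen. It called Ncam2 alone of the 9 members (3.73 ± 0.59 on the log2 scale, edgeR adjusted p = 0.0200), beside 0.209% of all genes. The call was lost without the P10 mutant (0.178), without the 3-month mutant (0.0522), without the library term (0.0575) and when the 3 immature V2R cells of the 3-month mutant, with their 3 UMIs, were taken in (0.0936).

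Sub-clusters of the P10 control, put in order of their Omp level over all libraries, are given side by side. The order of the early steps rests on few Omp UMIs, 7 and 9 in the first 2 apical steps and 1 each in the first 2 basal steps over all libraries. Gap43, also over all libraries, was at 364, 1263, 2453 and 274 CPM along the apical and at 315, 897, 2300 and 426 CPM along the basal steps. On the apical side there were 67, 53, 35 and 84 cells, of which the first group were precursors, and on the basal side 28, 25, 34 and 21 cells. These cell numbers and the member levels that follow are descriptions of the P10 control alone and were not tested. Nrp2 peaked at the second apical step, with 260, 1075, 361 and 314 CPM, and declined on the basal side, with 580, 418, 84.4 and 39.4 CPM. Robo2 ran down the apical series as 168, 67.0, 40.3 and 0.60 CPM and remained at 243, 190, 218 and 162 CPM on the basal side. At the first step the sides were nearer to each other in Robo2 than later, and basal cells were the higher side in Nrp2. That step sets apical precursors beside immature basal cells, so the sides are not matched in stage there.

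Ncam2 climbed on the apical side from 23.5 CPM to 103, 149 and 103 CPM and was at 5.3, 0, 3.7 and 17.5 CPM on the basal side. Kirrel2 had at most 50.4 CPM before the last step and then 295 CPM on the apical and 243 CPM on the basal side. Efna5 had 54.0, 342, 75.6 and 195 CPM along the apical steps and 414, 438, 64.2 and 133 CPM along the basal steps. Epha5 differed between the sides before maturity: the apical steps had 4.7, 43.7, 28.6 and 461 CPM and the basal steps 34.7, 316, 119 and 311 CPM. The second basal step (30 cells in all libraries) was called basal from Gnao1 (646 CPM) and Tfap2e (390 CPM) over Meis2 (13.6 CPM), although it held more Vmn1r than Vmn2r UMIs (585 against 255). Bcl11b, also listed as a basal marker, was at 295 CPM there, below the 432 and 310 CPM of the immature apical steps. In its 5 cells of the P10 mutant Tfap2e may also come from the transgene. At least 5 Vmn1r UMIs were found in 3 of its cells and at least 5 Vmn2r UMIs in 12.

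**Figure D3:**
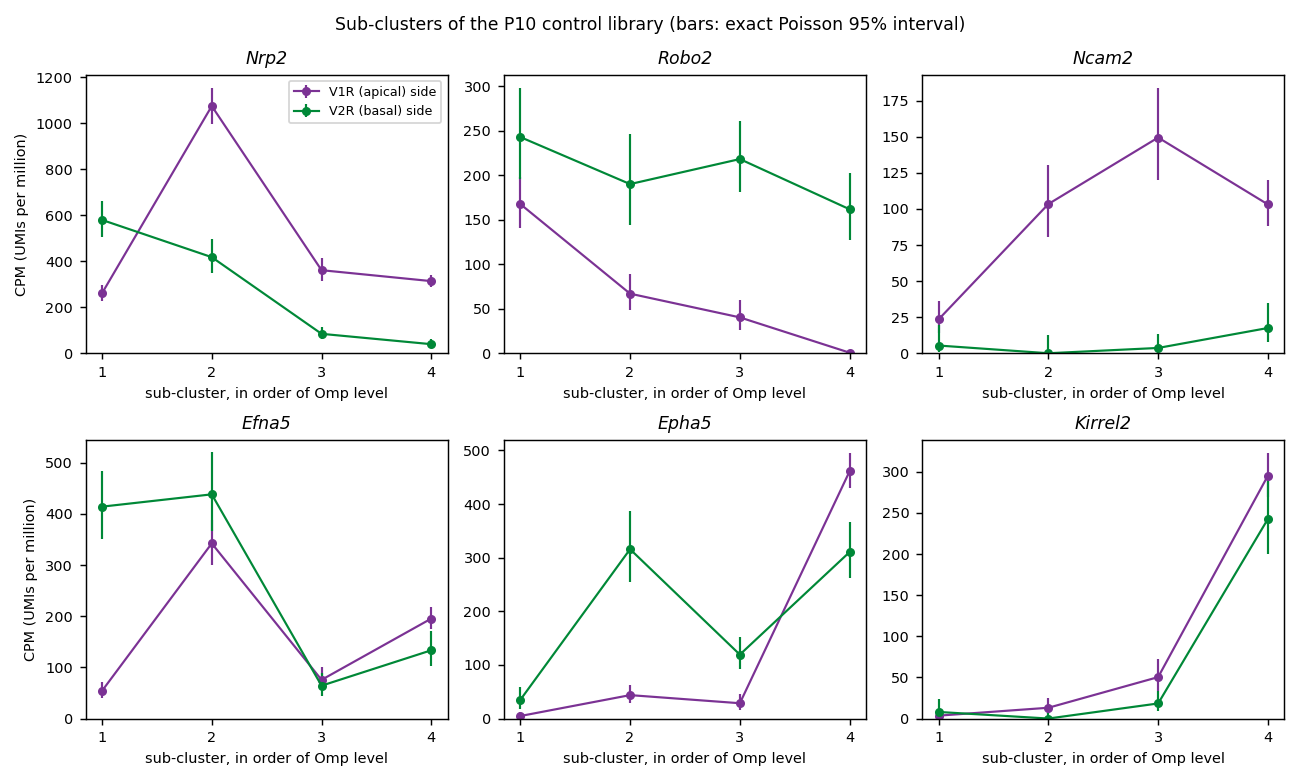
CPM (linear axes from 0) of 6 members in sub-clusters of the P10 control library, on the apical (V1R) and basal (V2R) sides. Sub-clusters are in the order of their Omp level over all libraries. Bars are exact Poisson 95% intervals and lines join sub-clusters of one side. Nrp2 peaks at 1075 CPM at the second apical step, Robo2 ends at 0.60 CPM on the apical and 162 CPM on the basal side, and Kirrel2 is high only at the last step of each side.

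Between the P10 mutant and the P10 control, 34 of 40 pairs of a gene and a neuronal class had at least 20 UMIs in both libraries together, and 1 pair was past 2-fold higher and 1 past 2-fold lower. Over all genes and the same 4 classes 3.04% were past 2-fold higher and 3.54% lower, so the members' share was near the background. Both pairs were in immature V2R cells, where the shares over all genes were 2.4% and 2.66%. Kirrel2 was at 27.8 CPM in mutant against 10.7 CPM in control cells, a ratio of 2.60 (1.19 to 5.82) from 17 and 13 UMIs. Epha5 was at 67.1 against 141 CPM, a ratio of 0.477 (0.330 to 0.673) from 41 and 171 UMIs. At 5% mitochondrial UMIs the Epha5 ratio was 0.505 and no longer past 2-fold.

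The make-up of the immature V2R class differed between these libraries. The sub-cluster with the highest Epha5 (316 CPM in the P10 control) was 28.7% of the class in the control and 12.8% in the mutant at P10. Within the 3 sub-clusters Epha5 was at 34.7, 316 and 119 CPM in 28, 25 and 34 control cells. It was at 12.1, 249 and 68.6 CPM in 18, 5 and 16 mutant cells, which held 41 Epha5 UMIs together. The differences within sub-clusters were not tested. The part of the make-up in the pooled ratio was not tested.

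In mature V1R cells, where Tfap2e was nearly absent from the control and present in the mutants, Kirrel2 and Kirrel3 lay just inside the 2-fold limit in opposite directions. Kirrel2 was at 172 CPM (143 to 205) in mutant and 321 CPM (293 to 351) in control cells, a ratio of 0.535 (0.435 to 0.653). Kirrel3 was at 160 CPM (132 to 193) and 82.7 CPM (68.9 to 98.5), a ratio of 1.94 (1.49 to 2.52). Ratios of the other members with enough UMIs in these cells lay between 0.737 for Nrp2 and 1.37 for Robo1. The ratio of Nrp2 was 0.566 (0.454 to 0.702) in immature V2R cells and 1.76 (0.977 to 3.19) in mature V2R cells, and Ncam1 had 0.672 (0.568 to 0.792) in mature V2R cells. Robo2 had 8 UMIs in mature V1R cells of the mutant and 0 in those of the control, under the 20 UMIs set for a ratio. Of the 8, 6 were in the 1 cell of the class that lay in the basal mature sub-cluster, and the 32 cells in apical sub-clusters held 2. Gnao1, the basal G protein subunit gene, was at 13.8, 106 and 57.3 CPM in mature V1R cells in library order. Bcl11b, also listed as a basal marker, did not follow it there, with 90.6, 92.9 and 92.2 CPM.

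**Figure D4:**
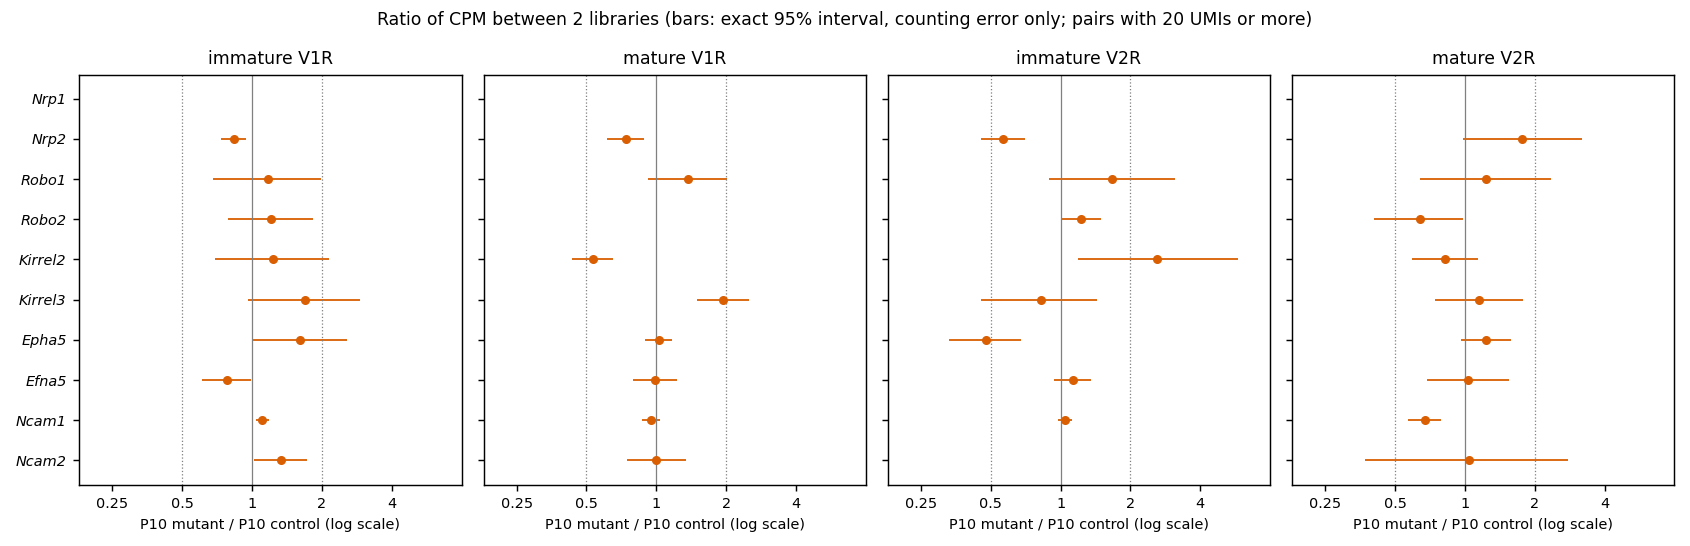
Ratio of CPM in the P10 mutant to that in the P10 control (log axis) for each member with at least 20 UMIs in the 2 libraries together, by neuronal class; bars are exact 95% intervals for counting error, dotted lines mark 2-fold. Points past the dotted lines are Kirrel2 (2.60) and Epha5 (0.477) in immature V2R cells.

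Between the 3-month mutant and the P10 mutant, 34 pairs had enough UMIs, 1 was past 2-fold higher and 4 were lower, beside 5.5% and 11.8% over all genes. Of these 5 pairs 4 came from the 3 immature V2R cells at 3 months. The remaining pair was Nrp2 in mature V2R cells, with 42.5 CPM at 3 months and 86.3 CPM at P10, a ratio of 0.493 (0.277 to 0.878) from 26 and 27 UMIs, and its P10 value is the one given above beside Meis2 and Gnai2. The Nrp2 ratio was no longer past 2-fold in cells with at least 2000 UMIs (0.513), under the stricter receptor rule (0.501) or with mixed sub-clusters kept (0.726). Efna5 in mature V2R cells had a ratio of 0.500 (0.319 to 0.784), just inside the limit. In mature V1R cells the ratios with enough UMIs lay between 0.746 for Kirrel3 and 1.62 for Nrp2. Apart from 1 V2R cell, the mature cells of the 3-month mutant lay in 2 sub-clusters of their own, which held no mature V1R or V2R cell of the P10 libraries. Both sub-clusters mixed the types, with 17 and 7 V1R cells and 30 and 28 V2R cells. The types at 3 months therefore rest on receptor UMIs and were not separated by clustering. The second of these sub-clusters had a median depth of 1008 UMIs.

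Mature V2R neurons also differ in which family C receptor they carry, Vmn2r1 or one of Vmn2r2 to Vmn2r7. With 16, 4 and 13 Vmn2r1 cells and 5, 5 and 27 Vmn2r2-7 cells in the 3 libraries, 0 of the 6 members tested passed (edgeR), beside 1.24% of 2735 genes. At an unadjusted p under 0.05 there was 1, Kirrel2, and DESeq2 called 0. Kirrel2 had 236, 240 and 181 CPM in Vmn2r1 cells and 120, 182 and 139 CPM in Vmn2r2-7 cells, a log2 difference of 0.52 ± 0.24 (edgeR adjusted p = 0.413). Robo2 had 160, 92.3 and 130 CPM against 190, 182 and 114 CPM (edgeR adjusted p = 0.781).

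Nrp1 was higher in endothelium and in glia than in the mean of the neuronal classes. It encodes neuropilin-1, the co-receptor for Sema3a and for vascular endothelial growth factor (chr8:128358604-128503363, plus strand). Endothelium had 426 CPM (397 to 458), 414 CPM (391.7 to 438) and 368 CPM (348 to 389) in library order, and glia had 48.5, 49.2 and 41.8 CPM. Neurons had 0 UMIs in immature V2R cells of all 3 libraries, 1 UMI in all mature V1R cells, 2 UMIs in all mature V2R cells, and 17, 0 and 12 UMIs in immature V1R cells. One cell held 64.7% of the 17 and one held 41.7% of the 12. The contrast with the mean of the 4 neuronal classes was 8.85 ± 0.35 for endothelium (edgeR adjusted p = 7.01e-13) and 5.54 ± 0.57 for glia (2.08e-07). Pericytes and smooth muscle (135 to 155 CPM), macrophages (84.3 to 129 CPM) and fibroblasts (73.2 to 104 CPM) also held Nrp1. Cldn5 was at 784, 956 and 1449 CPM in glia and at 914, 772 and 1128 CPM in endothelium, while Pecam1 was at most 6.0 CPM in glia. The part of endothelial RNA in the glial Nrp1 level was not tested.

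In glia 1 member was higher than in neurons and 8 were lower of 10 tested, beside 34.5% and 28.3% of 11218 genes. Kirrel2 had 0 UMIs and Kirrel3 4 UMIs in all glia. Ncam1 was lower in glia by 0.82 on the log2 scale, yet at 710, 642 and 638 CPM. Ncam2, at 43.4, 38.9 and 29 CPM, did not pass (0.34, edgeR adjusted p = 0.305), and lay between the V1R and the V2R neurons in both P10 libraries. Robo2 in glia (7.8 to 10.2 CPM) lost its call without the P10 mutant library (edgeR adjusted p = 0.924).

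In endothelium 2 members were higher and 8 lower of 10 tested, beside 40.7% and 32% of all genes. Nrp2 had 295, 311 and 316 CPM there, inside the range of the neuronal classes, and its contrast with their mean was 0.71 ± 0.26 (edgeR adjusted p = 0.0191, DESeq2 0.0789). The endothelium held 2 clusters: one of 707 cells with 421 CPM of Nrp1 and 299 CPM of Nrp2, and one of 46 cells with 0 Nrp1 UMIs and 488 CPM of Nrp2. Ncam1 was at 15.3 to 15.8 CPM and Ncam2 at most 1.5 CPM, and Robo1 was at 14.6, 24.1 and 10.6 CPM. Robo2 lost its call without the P10 mutant library and Ncam2 without the P10 control (edgeR adjusted p = 1 in both). Nrp2 was also found in pericytes and smooth muscle (243 to 428 CPM) and fibroblasts (262 to 318 CPM), and Robo2 in fibroblasts (85.2 to 98.6 CPM).

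A list of 102 other guidance and adhesion genes (Slits, semaphorins, plexins, netrin receptors, Ephs and ephrins, teneurins and adhesion molecules, mostly of the immunoglobulin type) was examined in the same fits. In mature V2R over V1R cells 33 could be tested, and 0 were higher and 1 lower, beside 3.14% of all genes. The 1 was Sema3e, a secreted semaphorin, with 25, 7.0 and 32.4 CPM in V1R cells and 0, 3.2 and 3.3 CPM in V2R cells. Its log2 difference was -3.35 ± 0.71 (edgeR adjusted p = 0.0210), and DESeq2 did not call it. In immature cells 1 was higher and 1 lower of 33, beside 4.15% of all genes. Plxnd1, a plexin that binds Sema3e, was higher in V2R cells (15.7 and 16.4 CPM at P10 against 0 and 1.8 CPM in V1R cells, 4.66 ± 1.02, edgeR adjusted p = 0.0195). Lsamp, a membrane-anchored adhesion molecule of the limbic system, was lower (-1.76 ± 0.28, edgeR adjusted p = 0.00276). The median log2 difference over the list was -0.02 in immature cells, against 0.01 over all genes tested.

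With maturation 14 genes of the list rose and 10 fell in V1R cells, and 9 rose and 10 fell in V2R cells, of 33 tested, beside the 20.9% and 17.6% of all genes in V1R and the 16.2% and 13.1% in V2R cells. Lsamp fell by 7.25 in V1R and by 3.37 in V2R cells on the log2 scale, and Dscaml1, a homophilic adhesion gene, by 5.42 and 2.75. Tenm1, a teneurin, rose by 2.38 and 2.09, and Unc5b, a netrin receptor, by 2.37 and 2.02. The list median was 0.21 in V1R and -0.02 in V2R cells. No gene of the list passed the added test of the difference between the types with edgeR (4 at an unadjusted p under 0.05) or with DESeq2.

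Between Vmn2r1 and Vmn2r2-7 cells 2 of 9 list genes passed, beside 1.24% of all genes. They were the teneurins Tenm2 (-5.36 ± 0.48, edgeR adjusted p = 8.73e-06) and Tenm4 (-2.80 ± 0.43, 0.00194), both lower in Vmn2r1 cells. In glia 43 of 75 were higher and 15 lower, beside 34.5% and 28.3% of all genes. Among the higher ones were Sema3b (9.93) and Sema3d (9.04), secreted semaphorins, and the Kirrel2 relative Kirrel (8.69), which was at 117 to 143 CPM in glia and at most 3.3 CPM in neurons. In endothelium 33 were higher and 30 lower of 75, near the 40.7% and 32% of all genes, and the higher ones were led by Robo4, the endothelial member of the Robo family (10.67), with 146 to 190 CPM and 0 UMIs in every neuronal class. The list medians were 2.46 in glia and 0.79 in endothelium, against 0.07 and 0.15 over all genes tested.

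The genes whose levels were most like those of each member were found by the Pearson correlation of log2(CPM + 1) over 17 sums of library and class, among 11488 genes. These are descriptions, and sums of one library share its depth and genotype. The closest genes were Plxna2 for Nrp1 (r = 0.983), Ankrd13a for Nrp2 (0.859), Casz1 for Robo1 (0.951), Krt8 for Robo2 (0.921), Wdsub1 for Kirrel2 (0.983), Coro2a for Kirrel3 (0.986), Cartpt for Epha5 (0.981), Map1b for Efna5 (0.978), Adgrl3 for Ncam1 (0.983) and Slc6a17 for Ncam2 (0.854). Nrp2 and Ncam2 had the least close partners.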

How the data were processed

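The deposited matrices hold raw counts of UMIs per gene and barcode, which the authors made with Cell Ranger on build mm10, per the labels; per the file headers version 4.0.0 was used at P10 and 6.0.1 at 3 months. Total UMIs were 83870584, 80760046 and 70074800 in library order. All intervals cover counting error only. Barcodes were clustered together (scanpy 1.11.5, Leiden, 2000 variable genes, 30 components, resolution 1) without the members, the pathway list, receptor genes and Tfap2e. Neuronal clusters were clustered again at resolution 2, and sub-clusters with over 10% of another cell type's leading genes were left out. Sub-clusters that were given no name were also left out. The largest of these had 106 cells, a median of 1743 UMIs and 1359 CPM of Gap43. Mature neurons were typed by at least 5 receptor UMIs, 80% of them of one family. Immature neurons were typed by sub-cluster. Names are rebuilt ones and may differ from the study's. Scrublet marked 3, 1 and 0 cells and so did not work, and doublets were left in. No correction for free RNA was made.

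Sums per library and class with at least 4 cells were tested with edgeR 4.0.16 (TMM, filterByExpr, quasi-likelihood, library as a term) and adjusted by Benjamini-Hochberg over all genes tested. The script was tested on simulated data. P-values measure how class differences vary between these libraries after an additive shift per library. This spread is shared over the classes of a fit. Always named were the 10 members, and of the pathway list up to 6 genes per contrast with the largest change among those past the threshold. The members and lists were chosen with earlier results of these data known. Alternatives were DESeq2 1.42.0, other size factors, no filter, no library term, leaving out each library, at most 5% mitochondrial UMIs, no high doublet scores, deeper cells, stricter typing and other folds.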

Additional observations from a re-analysis of the deposited data

Results flagged for a closer look

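Ncam2 changed with maturation in V2R cells (3.30 and 0 CPM in immature cells at P10, 24.5 and 25.6 CPM in mature cells) and not past the threshold in V1R cells (125 and 166 CPM, then 99.8 and 99.9 CPM). The difference between these changes was 3.73 ± 0.59 on the log2 scale by the interaction of stage and type (edgeR adjusted p = 0.0200), which is why it is listed here. Over 13 alternatives the adjusted p ran from 8.67e-07 to 0.178 and the difference from 2.96 to 7.04, and 9 of them kept the call. The immature V2R value rests on 4 UMIs in 126 cells at P10.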

How the results depend on the processing

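The 10 members gave 958 log2 values under the alternatives, of which 912 stayed on their side of the threshold, 23 lost a call and 22 gained one. The remaining 1 changed sign with a call, which was Efna5 (mature over immature V1R: 0.09, and -0.52 with mixed sub-clusters kept, edgeR adjusted p = 0.00743). The cause was not tested. Changes of sign between uncalled values were counted among the 912. Kirrel3 in mature V2R over mature V1R, for example, ran from -0.34 to 0.60 over the alternatives without a call.

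With no filter on low counts 5 members passed in mature V2R over mature V1R, 5 in immature V2R over immature V1R and 5 in maturation in V2R over maturation in V1R, where 3, 3 and 1 passed in the reported fits. Over all genes 3.18%, 3.89% and 0.992% passed with no filter. With only the 2 classes compared 7 passed in immature V2R over immature V1R, beside 11.4% of all genes, against 4.15% in the reported fit. For maturation in V2R over maturation in V1R DESeq2 gave 2, mixed sub-clusters kept 2, sums of 1 cell or more 0, and leaving out the 3-month mutant 0. The shares over all genes were 0.395%, 0.799%, 0.287% and 0.118% in that order. Pairs past 2-fold of the P10 mutant over the P10 control, 2 as reported, were 1 at 5% mitochondrial UMIs, 4 with mixed sub-clusters kept and 5 by the mean over cells, and 10 past 1.5-fold and 0 past 3-fold. Those of the 3-month over the P10 mutant, 5 as reported, were 8 by the mean over cells, 11 past 1.5-fold and 1 past 3-fold. Shares over all genes were not computed for pairs under these other settings. The causes were not tested.

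The library is the replicate block of these fits, since every group has 1 library. With no replicate block 0 members passed in maturation in V2R over maturation in V1R, and the counts over all genes were 107 in mature V2R over mature V1R (270 with the block), 162 in immature V2R over immature V1R (357), 2 in maturation in V2R over maturation in V1R (18) and 17 in Vmn2r1 over Vmn2r2-7 mature V2R neurons (34).

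Other counts over all genes that moved by over 1.5 times were, for mature V2R over mature V1R, 175 with DESeq2, 583 with no filter, 1247 with mixed sub-clusters kept and 143 without the 3-month mutant. For immature V2R over immature V1R they were 714 with no filter, 869 with 2 classes, 207 with immature cells typed by receptor, 141 without the P10 control and 200 without the P10 mutant. For mature over immature V1R cells, with 3314 in the reported fit, there were 2147 without the P10 control, and for V2R cells, with 2526, there were 1296 without the P10 control, 1117 without the P10 mutant and 1588 at 5% mitochondrial UMIs. For maturation in V2R over maturation in V1R they were 34 with DESeq2, 182 with no filter, 76 with mixed sub-clusters kept and 7 to 10 without a library, and for Vmn2r1 over Vmn2r2-7 mature V2R neurons 22 with DESeq2, 124 with no filter and 11 without the 3-month mutant.

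The minimum of 4 cells per sum was set after the cell counts were seen, in place of 5, so that 4 Vmn2r1 cells of the P10 mutant could enter; with 5 no call among the members changed. The alternatives with 5 cells, 1 cell and mixed sub-clusters kept, and the test of the difference between the maturation changes, were also chosen after seeing the data. Vmn2r1 cells at 5% mitochondrial UMIs left too few sums and could not be fitted. Without a P10 library immature V2R cells had 1 sum, which was assumed to vary like the others. Depth limits Nrp1, Robo2 and Ncam2, which had 0 to 17 UMIs in some neuronal classes, and all statements on immature V2R cells at 3 months.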

Other observations

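Several members were also counted outside the neurons, glia and endothelium. Precursors of the neuronal lineage had Ncam1 at 563, 524 and 465 CPM, Nrp2 at 83.8, 48.3 and 67.8 CPM and Robo2 at 64.8, 55.7 and 46.5 CPM in library order, and Kirrel3 at no more than 3.4 CPM. Sustentacular cells, the supporting cells of the sensory epithelium, had Robo1 at 49.9, 51.1 and 67.8 CPM and Ncam1 at 158, 147 and 182 CPM. Gland and secretory epithelium had Epha5 at 84.6, 67.6 and 43.6 CPM. Osteoblasts of the P10 libraries had Nrp2 at 357 and 414 CPM. These values are descriptions and were not tested.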
